A study of Homo sapiens with 4 samples.

Results

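The metalloproteinases and their TIMP inhibitors were taken as every gene name in the count tables made of MMP, ADAM, ADAMTS, ADAMTSL or TIMP and a number, which gave 73 of 29655 names. They comprise 24 MMP, 21 ADAM, 19 ADAMTS, 5 ADAMTSL and 4 TIMP genes. RNA was sequenced from UMSCC74B, an established head and neck squamous carcinoma line of wild-type genotype, grown in serum-containing DMEM. Cells were given a control shRNA (2 libraries) or a shRNA against PRMT5, an arginine methyltransferase (2 libraries), and were collected after 72 h without antibiotic. The labels describe plasmid transfection, whereas the methods of the study describe lentiviral particles, and no source states whether the libraries of a group came from separate cultures. The p-values therefore measure the spread between these libraries, which may be technical.

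MMPs are zinc-dependent proteases that cut collagens, laminins and other proteins around the cell, and TIMPs block them by occupying the active site. ADAMs are membrane proteins, some of which release growth factors, cytokines and receptors from the cell surface. ADAMTS proteases are secreted and bear thrombospondin repeats; they cut proteoglycans, trim procollagens or cleave von Willebrand factor, while ADAMTSL proteins keep the repeats and lack the protease domain. In carcinomas these enzymes are known from work on invasion and on the shedding of EGFR ligands.

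PRMT5 mRNA itself was higher in the libraries labelled PRMT5 KD, at 40.3 and 45.6 RPKM against 28.8 and 25.7 RPKM in control (log2 fold change 0.66, SE 0.12, edgeR adjusted p = 0.00543; 0.58 and adjusted p = 0.0674 without control replicate 2). The targeted transcript thus went against the label, and every direction given here is that of the libraries labelled PRMT5 KD relative to control. The study reports an immunoblot for the silencing by its shRNA against PRMT5. Its methods name qRT-PCR for transduced cells in general. These data were not analysed here. An exchange of labels or files was not tested and would turn every direction given. Levels are RPKM, protein-coding reads scaled for exon length and library total, with TMM scaling between libraries. Gene totals ran from 52185289 to 65964558 counts per library. Ribosomal RNA took 15.3% and 14.2% of the counts in control and 26.2% and 18.0% in the libraries labelled PRMT5 KD. Defining genes of squamous epithelium were nearly absent, with at most 4 counts of KRT5, 1 of KRT6A, 22 of KRT14 and 9 of CDH1 in any library, so the labelled cell type was not borne out by these keratins and by E-cadherin. TP63 and DSG3 were detected and fell (log2 fold changes -1.35 and -0.85). Messenger RNAs used as fibroblast markers were present and fell in 6 of 6 cases, beside 24.4% of all genes tested. COL3A1, which is 1 of the 6, and TP63 reached the minimum of 0.5 RPKM in control alone, so both had to differ to be tested. In bulk RNA, fewer cells of a type and less RNA per cell cannot be told apart.

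The stretches of 250 bases before the RefSeq start sites of 4 genes are shown as examples. TIMP3 had the largest decrease, TIMP1 was the TIMP whose libraries disagreed, and MMP14 was the most abundant MMP in control. MMP10 belongs to the gene cluster that holds MMP1, MMP3 and MMP12 and was itself too low to be tested. Sequences are from RefSeq on GRCh38.p14, 5′ to 3′ on the strand of the gene, at chr22:32801455-32801704 (plus strand) for TIMP3, chrX:47582186-47582435 (plus) for TIMP1, chr14:22836335-22836584 (plus) for MMP14 and chr11:102780629-102780878 (minus) for MMP10. The GENCODE bounds of TIMP1 and MMP14 begin slightly before the RefSeq start, so the last bases of these 2 stretches lie within the GENCODE gene. Capitals mark matches to TGANTCA, a loose form of the AP-1 site that admits any middle base, and to TATAAA, the TATA box.
TIMP3: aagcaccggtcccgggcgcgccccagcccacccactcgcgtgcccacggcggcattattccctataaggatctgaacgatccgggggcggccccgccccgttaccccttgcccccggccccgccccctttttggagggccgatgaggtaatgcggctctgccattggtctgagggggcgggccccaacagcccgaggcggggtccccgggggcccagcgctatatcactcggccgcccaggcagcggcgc
TIMP1: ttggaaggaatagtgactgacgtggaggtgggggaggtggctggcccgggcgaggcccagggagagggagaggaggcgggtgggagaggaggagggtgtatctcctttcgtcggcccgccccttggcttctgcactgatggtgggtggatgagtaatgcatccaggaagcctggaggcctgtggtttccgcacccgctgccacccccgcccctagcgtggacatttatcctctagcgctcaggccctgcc
MMP14: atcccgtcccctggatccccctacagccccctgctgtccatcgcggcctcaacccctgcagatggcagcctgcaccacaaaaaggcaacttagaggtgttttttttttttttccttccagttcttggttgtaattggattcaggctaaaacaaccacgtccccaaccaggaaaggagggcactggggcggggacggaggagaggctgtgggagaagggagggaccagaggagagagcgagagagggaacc
MMP10: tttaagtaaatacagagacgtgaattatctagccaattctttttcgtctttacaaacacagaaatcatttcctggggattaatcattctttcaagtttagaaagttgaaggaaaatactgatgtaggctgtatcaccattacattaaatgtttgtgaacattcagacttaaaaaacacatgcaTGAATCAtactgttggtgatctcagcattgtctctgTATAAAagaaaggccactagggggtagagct
The TIMP3 stretch was 72.4% G and C with 26 CpG dinucleotides, and that of TIMP1 was 64.8% with 12. MMP14 stood at 56.8% with 7 CpG, whereas MMP10 was AT-rich, at 34.4% with 2 CpG. In MMP10 the match to TGANTCA begins 67 bases before the start site as TGAATCA and the TATA letters begin at 31. MMP7, the first gene of the same cluster in chromosome order, holds TGAGTCA at 67 bases and TATAAA at 30. Both motifs were searched on both strands of windows reaching 50 bases past the start; they share no base in the MMP10 stretch. TGANTCA occurred in 7.71% of all 35116 windows and in 4 of 45 windows of these genes (ADAMTS12, MMP7, MMP10 and MMP20), and TATAAA in 11.5% of all windows and in 9 of the 45. Windows were matched for 44 of the 73 genes, and for 25 of the tested ones. Of these 25, 1 held TGANTCA (ADAMTS12, which fell) and 1 held TATAAA (ADAM21, which rose). Genes without a matched window were not searched. A gene not named here, such as MMP1, MMP3 or MMP12, is therefore not shown to lack either motif. A link of these letters to any change was not tested.

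Of the 73 genes, 39 reached 0.5 RPKM in both libraries of a group and were tested. Called genes have an FDR under 0.05 and a log2 fold change of at least 0.5 in size. By this rule 25 of the 39 fell and 4 rose, and 10 were not called. Over all 11895 genes tested, 24.4% fell and 21.2% rose. The median log2 fold change of the 39 was -1.01, with 33 below 0, against -0.01 over all genes. Only 31 of them met the level minimum in both groups, and of these 19 fell and 3 rose, beside 22.1% and 21.1% of the 11071 genes that did so; another 7 met it in control alone and 1, MMP12, in the libraries labelled PRMT5 KD alone, so those 8 had to differ to be seen. At a log2 fold change of at least 1, 20 members fell and 2 rose, where the whole table gave 12.9% and 8.68%. Scaling to total counts alone shifted the median of all genes to 0.17; 23 members then fell and 4 rose, and the signs of ADAM15 and ADAMTS3, neither of them called, turned.

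**Figure D1:**
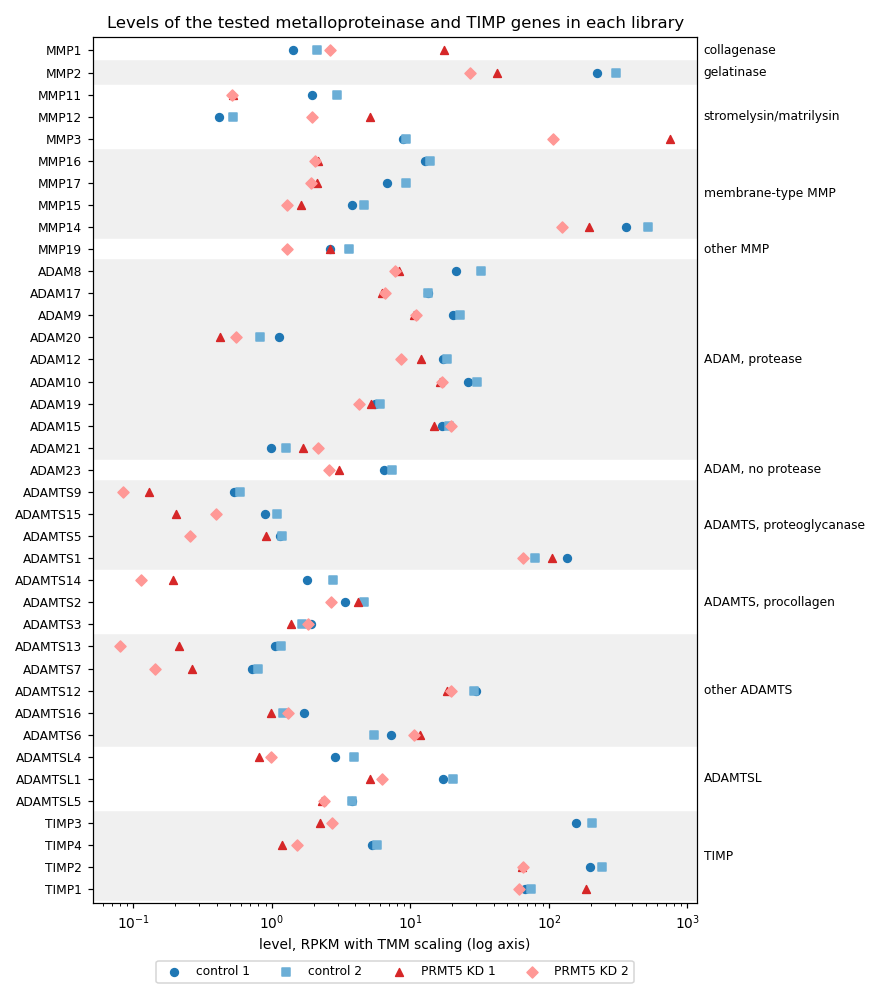
Level of each tested gene in each of the 4 libraries, in RPKM with TMM scaling on a log axis, 1 row per gene grouped by role. Circles and squares are the control libraries, triangles and diamonds the libraries labelled PRMT5 KD; TIMP3 lies at 157 and 206 RPKM in control and at 2.22 and 2.71 RPKM in the others, while MMP3 lies far to the right in both libraries labelled PRMT5 KD.

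Of the 4 inhibitors 3 fell and 1 was not called, where 24.4% of all genes tested fell. TIMP3 is the TIMP that binds to the extracellular matrix and blocks ADAM17 and several ADAMTS proteases as well as MMPs. Its level was 157 and 206 RPKM in control and 2.22 and 2.71 RPKM in the libraries labelled PRMT5 KD, so that the groups lay far apart (mean 181 ± 35.0 against 2.46 ± 0.343 RPKM, SD, n = 2 each). It fell 73.6-fold (log2 fold change -6.20, SE 0.23, edgeR adjusted p = 0.000122), and its range with each library left out was -6.39 to -5.99. TIMP2, which inhibits MMPs and also bridges MMP14 and the proform of MMP2 at the membrane, went from 197 and 242 RPKM to 63.8 and 64.9 RPKM (log2 fold change -1.77, SE 0.16, adjusted p = 0.000491 by edgeR). TIMP4 stood at 5.25 and 5.71 RPKM in control and 1.18 and 1.52 RPKM with the PRMT5 KD label (log2 fold change -2.02, SE 0.24, adjusted p = 0.00106 by edgeR).

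TIMP1, a soluble inhibitor of most secreted MMPs, behaved differently in the 2 libraries labelled PRMT5 KD. It read 67.8 and 74.5 RPKM in control, 186 RPKM in PRMT5 KD replicate 1 and 61.1 RPKM in replicate 2, so the groups overlapped. The change did not pass (log2 fold change 0.79, SE 0.54, edgeR adjusted p = 0.272). Without PRMT5 KD replicate 1 it was -0.18 and without replicate 2 it was 1.39 and called. TIMP1, TIMP3 and TIMP4 each lie inside a synapsin gene on the opposite strand, SYN1, SYN3 and SYN2 in this order. The synapsin genes had at most 13 counts in any library. TIMP1 spans bases 47582408 to 47586789 of chromosome X, TIMP2 78852977 to 78925387 of chromosome 17, TIMP3 32801705 to 32863041 of chromosome 22 and TIMP4 12153068 to 12158912 of chromosome 3 (GRCh38, GENCODE).

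Among the MMPs, 10 of 24 were tested, of which 6 fell and 2 rose, beside 24.4% and 21.2% of all genes tested. MMP2, the gelatinase that digests denatured collagen and basement membrane collagen, fell from 222 and 306 RPKM to 42.0 and 27.1 RPKM (log2 fold change -2.93, SE 0.28, edgeR adjusted p = 0.000787). The other gelatinase, MMP9, had 5 and 7 counts in control and 3 and 0 with the PRMT5 KD label and was not tested. All 4 tested membrane-type MMPs fell, where 24.4% of all genes tested fell. MMP2 spans bases 55389700 to 55506691 of chromosome 16 and MMP14 bases 22836560 to 22849041 of chromosome 14. MMP14, the main cell-surface collagenase and activator of MMP2, read 358 and 516 RPKM in control and 196 and 124 RPKM in the libraries labelled PRMT5 KD (log2 fold change -1.45, SE 0.29, adjusted p = 0.00834 by edgeR); without control replicate 2 the value was -1.16 and the call was lost (adjusted p = 0.0577 by edgeR).

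The remaining membrane-type enzymes were less abundant. MMP16, which like MMP14 spans the membrane and can activate MMP2, fell from 12.8 and 13.8 RPKM to 2.17 and 2.06 RPKM (log2 fold change -2.65). MMP17, held by a lipid anchor, fell from 6.82 and 9.36 RPKM to 2.11 and 1.92 RPKM (-2.01). MMP15, another transmembrane MMP, fell from 3.78 and 4.63 RPKM to 1.63 and 1.29 RPKM (-1.53). In these 3 genes the libraries of a group lay close together relative to the gap between groups. MMP11, or stromelysin 3, known from the stroma of carcinomas, fell from 1.96 and 2.97 RPKM to 0.526 and 0.512 RPKM (-2.25). MMP19 was not called (-0.69, SE 0.37, edgeR adjusted p = 0.177), with 2.62 RPKM in PRMT5 KD replicate 1, about the 2.64 RPKM of control replicate 1, and 1.28 RPKM in replicate 2. It shares 821 exon bases with TMEM198B on the opposite strand, and the strand setting of the counting is not given in the sources used here.

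The MMPs that rose lie side by side. A cluster of 9 MMP genes spans 435 kb of chromosome 11, all on the minus strand, in the order MMP7, MMP20, MMP27, MMP8, MMP10, MMP1, MMP3, MMP12 and MMP13. Only MMP1, MMP3 and MMP12, neighbours between bases 102789401 and 102874982, were expressed enough to be tested. MMP3 (stromelysin 1), which cuts many matrix proteins and activates other MMP proforms, read 8.84 and 9.32 RPKM in control, 749 RPKM in PRMT5 KD replicate 1 and 108 RPKM in replicate 2. Both libraries labelled PRMT5 KD were thus far above control, and they differed 6.96-fold from each other. The log2 fold change was 5.56 (SE 1.08, edgeR adjusted p = 0.0133); it was 3.60 without PRMT5 KD replicate 1 and 6.37 without replicate 2. The call was lost with either control library left out (adjusted p = 0.0612 and 0.0700 by edgeR) and without a filter on low counts (adjusted p = 0.0967 by edgeR).

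MMP12, the macrophage elastase, read 0.416 and 0.526 RPKM in control and 5.11 and 1.94 RPKM with the PRMT5 KD label (log2 fold change 2.89, SE 0.53, edgeR adjusted p = 0.00688). It too lost the call without either control library (adjusted p = 0.0518 and 0.0504 by edgeR). MMP1, the interstitial collagenase, read 1.43 and 2.12 RPKM in control, 17.4 RPKM in PRMT5 KD replicate 1 and 2.63 RPKM in replicate 2. Its groups did not overlap, yet the change was not called (2.49, SE 0.95, adjusted p = 0.0855 by edgeR), and without PRMT5 KD replicate 1 it was 0.60. Over all gene names or with non-robust dispersion MMP1 was called (adjusted p = 0.0334 and 0.0477 by edgeR). Of the other genes of the cluster, MMP10 had 0 and 1 counts in control and 10 and 3 with the PRMT5 KD label, MMP13 had 11, 12, 23 and 9 and MMP7 had 13, 31, 7 and 15 in the same order of libraries. MMP8, MMP20 and MMP27 had no count in any library.

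**Figure D2:**
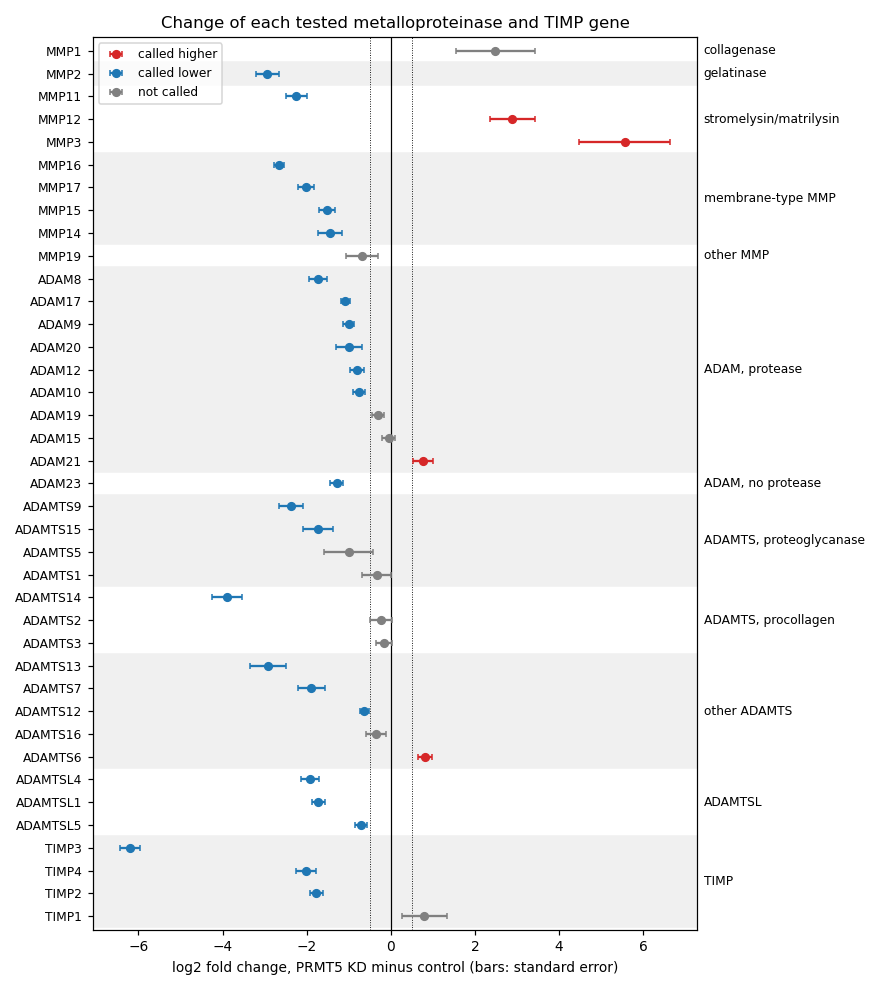
Log2 fold change of each tested gene, libraries labelled PRMT5 KD minus control, with its standard error as a bar and genes grouped by role; dotted lines stand at -0.5 and 0.5, and colour gives the call. MMP3 and MMP12 are the called genes farthest right and TIMP3, at -6.20, is farthest left; ADAM15 and ADAMTS3, in grey near 0, change sign under scaling to total counts alone.

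The make-up of the MMP mRNA pool differed between the groups. Summed over 24 MMP genes, the level was 619 and 868 RPKM in control, 1019 RPKM in PRMT5 KD replicate 1 and 271 RPKM in replicate 2, so the groups overlapped. MMP14 made up 57.9% and 59.4% of the control sums, and MMP2 35.8% and 35.2%. With the PRMT5 KD label MMP14 made up 19.2% and 45.8% and MMP2 4.12% and 9.99%. MMP3 went from 1.43% and 1.07% to 73.5% and 39.7%, with no overlap between groups.

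The 4 TIMPs together read 427 and 528 RPKM in control and 253 and 130 RPKM with the PRMT5 KD label. TIMP3 made up 36.7% and 39.0% of these sums in control and 0.879% and 2.08% in the libraries labelled PRMT5 KD. TIMP2 and TIMP1 supplied nearly all of the rest there. TIMP mRNA per MMP mRNA, each as summed RPKM, was 0.689 and 0.608 in control, 0.248 in PRMT5 KD replicate 1 and 0.481 in replicate 2. These ratios are of RNA and were not tested.

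**Figure D3:**
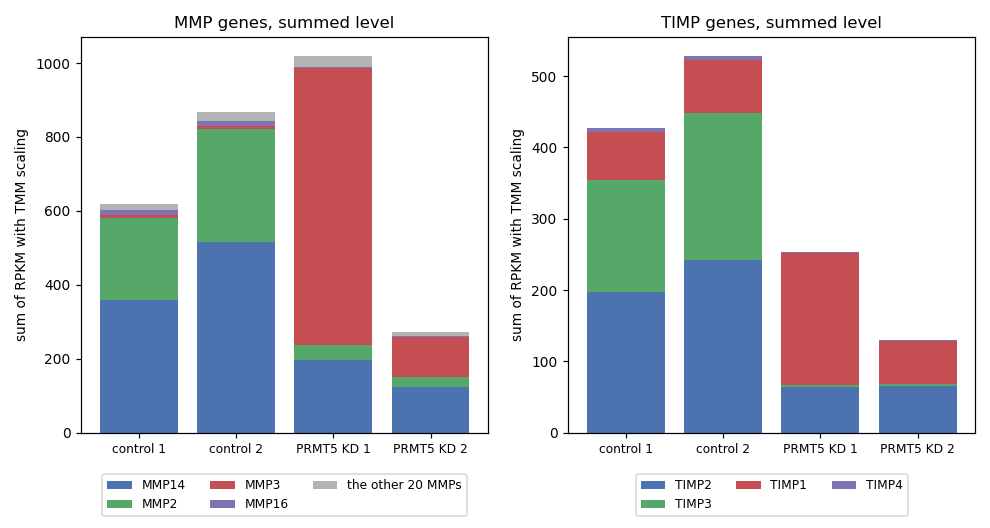
Stacked sums of the MMP genes (left) and of the TIMP genes (right) in each library, in RPKM with TMM scaling; each colour is a gene and the vertical axes start at 0. MMP3 makes up 73.5% and 39.7% of the MMP sums with the PRMT5 KD label, and the TIMP3 layer, 36.7% and 39.0% of the control TIMP sums, is barely visible there.

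The libraries labelled PRMT5 KD differed from each other in this family. In 7 of 39 tested members, 17.9%, the level of replicate 1 was over 2-fold that of replicate 2. These were MMP1, MMP3, MMP12, MMP19, TIMP1, ADAMTS5 and ADAMTS13, and no member differed that far the other way. Of 11886 genes with a value in both libraries, 2.41% differed over 2-fold, 185 of the 287 with the higher level in replicate 1. Between the control libraries 0 members and 0.639% of genes differed so far. The share of ribosomal RNA, 26.2% against 18.0%, differed between the same 2 libraries, and its part in the result was not tested.

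**Figure D4:**
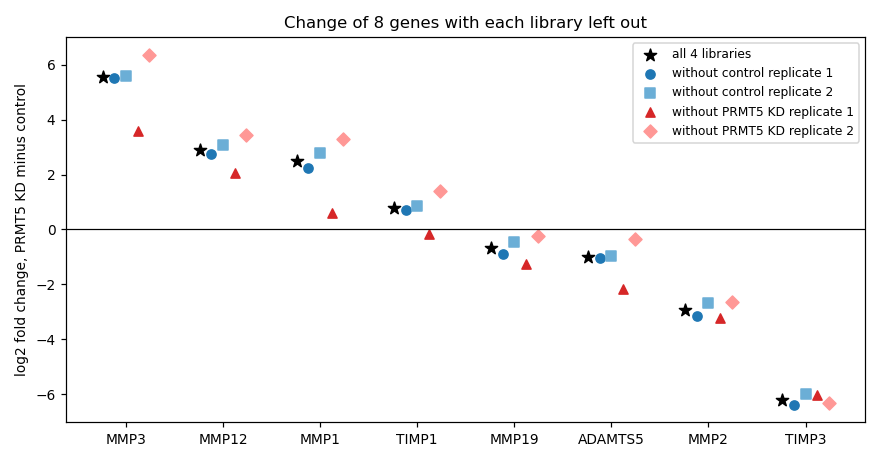
Log2 fold change, libraries labelled PRMT5 KD minus control, of 8 genes with all 4 libraries (stars) and with each library left out in turn. The TIMP1 point without PRMT5 KD replicate 1 is below 0, at -0.18, and the points of MMP3 range from 3.60 to 6.37, while those of TIMP3 and MMP2 stay together.

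Of 21 ADAM genes 10 were tested, and 7 fell and 1 rose, beside 24.4% and 21.2% of all genes tested. ADAM17, the main sheddase of TNF and of several EGFR ligands, read 13.5 and 13.4 RPKM in control and 6.19 and 6.54 RPKM with the PRMT5 KD label (log2 fold change -1.08, SE 0.11, edgeR adjusted p = 0.00062). Its libraries differed little within a group. It shares 1645 exon bases with IAH1 on the opposite strand, which fell too (-1.31), and reads of the pair could be mixed if strand was not used. ADAM10, which cuts Notch, cadherins and other EGFR ligands, fell from 25.9 and 30.1 RPKM to 16.2 and 16.9 RPKM (-0.76, SE 0.13, adjusted p = 0.00435 by edgeR), and the call was lost without control replicate 2 and with exon length and GC content corrected (-0.45).

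ADAM8 and ADAM9 have been studied in tumour invasion. ADAM8 fell from 21.3 and 32.3 RPKM to 8.27 and 7.81 RPKM (-1.74), and ADAM9 fell from 20.4 and 23.0 RPKM to 10.7 and 10.9 RPKM (-1.01). ADAM12, a shedding enzyme of stromal and tumour cells, fell by 0.80 on the log2 scale, a call that was lost without either control library. ADAM23, which has no protease activity and binds integrins, fell from 6.43 and 7.42 RPKM to 3.07 and 2.59 RPKM (-1.29). ADAM20 and ADAM21 are neighbours on chromosome 14, near copies known from testis, and went opposite ways (-0.99 and 0.77). As reads may be split between them, both are uncertain. ADAM20 also met the level minimum in control alone, so it had to differ to be tested. ADAM20 was no longer called under total counts alone, a replicate block or 3 of the 4 omissions of a library, nor was ADAM21 under the length and GC correction or 3 of the 4 omissions. ADAM19 (-0.30) and ADAM15 (-0.05) were not called.

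Among the ADAMTS proteases, 12 of 19 were tested, of which 6 fell and 1 rose, beside 24.4% and 21.2% of all genes tested. Of the 6 that fell, only ADAMTS12 met the level minimum in both groups, so the others had to differ to be tested. ADAMTS14, a procollagen N-proteinase, had the largest decrease, from 1.79 and 2.76 RPKM to 0.193 and 0.113 RPKM (log2 fold change -3.90, SE 0.35, edgeR adjusted p = 0.000519). The other N-proteinases ADAMTS2 (-0.23) and ADAMTS3 (-0.16) were not called, and in both the groups overlapped. ADAMTS13, the protease of von Willebrand factor, fell from 1.06 and 1.17 RPKM to 0.214 and 0.0806 RPKM (-2.92). Of the proteoglycanases, which degrade aggrecan and versican, ADAMTS9 fell from 0.532 and 0.586 RPKM to 0.130 and 0.0842 RPKM (-2.38) and ADAMTS15 from 0.892 and 1.10 RPKM to 0.203 and 0.397 RPKM (-1.73), the last not without control replicate 2. All 4 of these falling genes were low to begin with and met the minimum in control alone, as did ADAMTS7.

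ADAMTS1, the most abundant ADAMTS, was not called, at 135 and 79.3 RPKM in control and 105 and 65.0 RPKM with the PRMT5 KD label (-0.34, SE 0.34, edgeR adjusted p = 0.439). ADAMTS5, the main aggrecanase of cartilage, read 1.15 and 1.18 RPKM in control but 0.904 and 0.255 RPKM in the others, and was called only without PRMT5 KD replicate 1 (-1.01 in all libraries, -2.15 without it). ADAMTS7, which cuts cartilage oligomeric matrix protein, fell from 0.719 and 0.793 RPKM to 0.265 and 0.143 RPKM (-1.89). ADAMTS12, a relative of ADAMTS7, fell by 0.63 on the log2 scale, and its call was lost under total counts alone and with length and GC content corrected. ADAMTS6 was the ADAMTS gene that rose, from 7.29 and 5.51 RPKM to 11.7 and 10.7 RPKM (0.81, SE 0.16, adjusted p = 0.00625 by edgeR). ADAMTS16 was not called (-0.35).

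All 3 tested ADAMTSL genes fell, where 24.4% of all genes tested fell. ADAMTSL1 went from 17.3 and 20.3 RPKM to 5.08 and 6.28 RPKM (log2 fold change -1.73, SE 0.15, edgeR adjusted p = 0.000483). ADAMTSL4, which binds fibrillin and is needed to hold the lens in place, fell from 2.85 and 3.94 RPKM to 0.804 and 0.985 RPKM (-1.92), and it shares 736 exon bases with an antisense RNA. ADAMTSL5 fell by 0.70 on the log2 scale, not called without either control library.

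The 34 untested genes had few counts. The highest count of any of them was 189 (ADAM32), and 26 of the 28 with any count stayed under 100 in every library. The untested MMPs with counts outside the chromosome 11 cluster were MMP9, MMP21, MMP23A, MMP23B, MMP24, MMP25 and MMP28, with at most 46 counts (MMP25). MMP23A and MMP23B are near-identical copies and their split is uncertain. The untested ADAMs with counts were ADAM5, ADAM7, ADAM11, ADAM18, ADAM22, ADAM28, ADAM29, ADAM30, ADAM32 and ADAM33, from 0 to 189 counts. ADAMTS4, ADAMTS10, ADAMTS17, ADAMTS18, ADAMTS19 and ADAMTS20 had at most 92 counts (ADAMTS20), and ADAMTSL2 and ADAMTSL3 at most 68 (ADAMTSL3). The genes with no count in any library were ADAM2, ADAMTS8, MMP8, MMP20, MMP26 and MMP27, which allows up to 3 counts per library, 0.0599 to 0.0758 CPM, for counting error only.

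With the looser count filter of edgeR, 53 members were tested and 14 of them were additions. Of these 14, 7 fell and 0 rose. Among the 2039 genes that this filter added, 25.2% fell and 9.47% rose, and among all 13934 genes so tested 22.5% and 21.6%. ADAM22, ADAM33 and ADAMTS10 had under 10 counts in PRMT5 KD replicate 1, as did ADAMTS17 and MMP7, which were not called. ADAM22, ADAM33 and ADAMTS10 passed only through control and so had to be higher there to be seen. ADAMTS17 and MMP7 also needed control to pass. ADAM33, an ADAM studied in airway remodelling, had 70 and 108 counts in control and 8 and 14 with the PRMT5 KD label (log2 fold change -3.01). ADAMTS10, which like ADAMTSL4 associates with fibrillin, had 29 and 54 counts against 3 and 4 (-3.52). ADAM22 (-2.41), ADAMTSL3 (-1.55), MMP25 (-1.55), ADAMTS20 (-1.20) and ADAM32 (-0.89) were the others that fell.

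Proteins that control these enzymes were read from a list of 17 genes, of which 14 were tested, 8 fell and 0 rose, where 24.4% of all genes fell and 21.2% rose (median log2 fold change -1.10, against -0.01 over all genes). LRP1, the endocytic receptor that clears MMPs, ADAMTS proteases and TIMP3, went from 146 and 187 RPKM to 37.6 and 35.4 RPKM (-2.19, SE 0.18, edgeR adjusted p = 0.000422). RECK, a membrane-anchored inhibitor of MMP2, MMP9 and MMP14, fell from 6.85 and 8.67 RPKM to 2.61 and 3.13 RPKM (-1.44). RHBDF1 and RHBDF2 encode the iRhom proteins that carry ADAM17 to the surface, and both fell (-1.59 and -1.15), while their partner FRMD8 was not called (0.47). Of the tetraspanins that escort ADAM10, TSPAN15 (-2.28), TSPAN10 (-2.06) and TSPAN5 (-1.05) fell, and TSPAN14 (0.27) and TSPAN17 (0.08) were not called. PAPLN, a secreted relative of the ADAMTS proteins, fell (-1.64). The proprotein convertases FURIN (-0.49) and PCSK7 (-0.36), which remove prodomains, and BSG, an inducer of MMPs (-0.32), were not called.

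AP-1 and ETS factors are known to act at MMP promoters, and of 12 such genes 11 were tested, 4 rose and 1 fell (median 0.27, against -0.01 over all genes, of which 21.2% rose and 24.4% fell). FOSL1 rose from 42.9 and 40.0 RPKM to 131 and 103 RPKM (2.82-fold, SE of the log2 value 0.15, edgeR adjusted p = 0.000609). FOSB (1.48), ETS2 (0.73) and ETV4 (0.55) also rose, and JUND fell, from 67.7 and 79.4 RPKM to 42.5 and 30.9 RPKM. ELF3, an epithelial ETS factor, had 4 and 4 counts in control and 150 and 140 with the PRMT5 KD label and was below the minimum for testing. Of 11 other extracellular metalloproteinases 8 were tested, 4 fell and 2 rose (median -0.44), which is to be read against the same shares over all genes. TLL1 (-4.16) and BMP1 (-1.05), which remove the C-propeptide of procollagens, fell, as did the membrane peptidases MME (-2.15) and ECE1 (-1.25), while MEP1B (2.71) and ECE2 (0.85) rose. TLL1 met the level minimum in control alone and MEP1B in the libraries labelled PRMT5 KD alone, so that both had to differ to be tested.

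**Figure D5:**
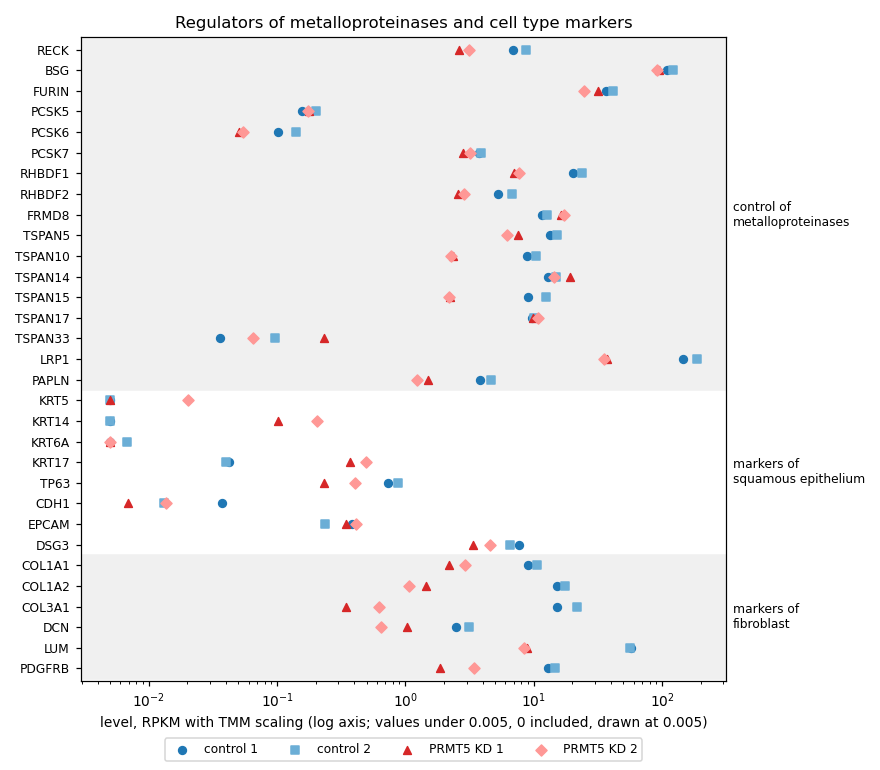
Level of the genes that control metalloproteinases and of the squamous and fibroblast markers in each library, in RPKM with TMM scaling on a log axis; values under 0.005, zeros included, are drawn at 0.005. LRP1 lies at 146 and 187 RPKM in control and at 37.6 and 35.4 RPKM with the PRMT5 KD label, and all 6 fibroblast markers lie lower there than in control.

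The fibroblast markers all fell, beside 24.4% of all genes tested, while the leukocyte markers went both ways. The 6 fibroblast markers summed to 113 and 124 RPKM in control and to 15.6 and 17.1 RPKM with the PRMT5 KD label, with a median log2 fold change of -2.56; COL3A1, like TP63 and PECAM1, met the level minimum in control alone. They were COL1A1 (-1.95), COL1A2 (-3.71), COL3A1 (-5.25), DCN (-1.74), LUM (-2.73) and PDGFRB (-2.38). Among leukocyte markers PTPRC had at most 5 counts and LYZ at most 7, CD14 fell (-4.67) and CD68 rose (0.63), and the sum of these 4 genes was 64.8 and 76.6 RPKM in control and 71.2 and 79.6 RPKM in the others. Of the endothelial markers PECAM1 fell (-5.27), CDH5 had at most 8 counts, and VWF had 102 and 205 counts in control and 34 and 15 in the others. The squamous markers, 2 of 8 of them tested, summed to 8.92 and 7.71 RPKM in control and 4.42 and 6.11 RPKM in the others, and KRT17, too low to be tested, had 5 and 6 counts against 53 and 71. The part of these markers in the fall of MMP2, MMP14, TIMP2, TIMP3 and the other members was not tested.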

How the data were processed

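RNA-seq of 2 control libraries and 2 libraries labelled PRMT5 KD was analysed. The authors deposited estimated counts per gene, not normalized, 1 table per library; 86.0% to 86.8% of the values are whole. Per the labels, the submitters' processing notes list FastQC, Trim Galore, STAR, Salmon and DESeq2 with GRCh38, whereas the methods of the study name FeatureCounts and a GENCODE annotation of protein-coding genes, which may not be that of these tables, since they hold decimals, RefSeq-style symbols and rRNA genes. Names turned into dates (28, at most 0.161% of counts) were left out. The 29655 names were matched to GENCODE on GRCh38 by symbol (21877), RefSeq number (1147) or unique synonym (1526); 109 were ambiguous and 4996 unmatched.

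Counts were rounded. The test covered 11895 protein-coding genes, those at or above 0.5 RPKM in both libraries of a group, and was the quasi-likelihood test of edgeR 4.0.16 (robust, TMM factors, Benjamini-Hochberg) in R 4.3.3, without a replicate term. Genes were called at an FDR under 0.05 and a log2 fold change of at least 0.5. The standard error of a log2 fold change was its size over the root of F. All tested members are named; those called with a log2 fold change of at least 1 are given per library. Genes outside the families come from lists written from general knowledge. Members, lists and tests were chosen with earlier results of these data known. Alternatives were DESeq2 1.42.0, other scalings and filters, all gene names, non-robust dispersion, a replicate block, splines on exon length and GC content (4 degrees of freedom), a threshold of 1 and each library left out. The scripts were tested on simulated data. No source says that replicate numbers pair the libraries, so they were left unpaired. Protein sequences were not used here, so active and inactive ADAMs were told apart from general knowledge.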

Additional observations from a re-analysis of the deposited data

How the results depend on the processing

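Of 39 tested members, 21 kept direction and call in every refit, and 18 changed in some; 9 changed in refits other than the omission of a library. The stricter threshold, a log2 fold change of at least 1, is not a refit and is left out of these counts; at it 20 members fell. The number that fell was 25 with DESeq2 and with upper quartile factors, 23 with total counts alone, 32 without a filter and 32 with the count filter of edgeR, 24 over all gene names, and 23 with length and GC content corrected. The number that rose was 3 to 5 under these settings and 2 at a log2 fold change of at least 1, where 2561 genes were called in all. With total counts alone, 3508 genes rose and 2198 fell over the whole table, against 2523 and 2898. With each library left out, 1 to 5 members rose, 19 to 27 fell and 3133 to 5708 genes were called in all, and PRMT5 was 0.57 to 0.78; the lowest counts came without control replicate 2, and a lone library is assumed to vary like the other group.

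Signs turned in genes that were not called. ADAM15 (-0.05) was 0.13 with total counts alone, 0.013 with the count filter of edgeR, 0.0006 over all gene names, 0.18 with length and GC content corrected and 0.16 with the block added. ADAMTS2 was 0.063 with length and GC content corrected and 0.045 with the block added, and ADAMTS3 was 0.025 with total counts alone. Over the omissions, ADAM15 ranged from -0.25 to 0.17, ADAMTS1 from -0.69 to 0.10, ADAMTS2 from -0.54 to 0.061, ADAMTS3 from -0.36 to 0.060 and TIMP1 from -0.18 to 1.39. ADAMTS2 and MMP19 were called lower without PRMT5 KD replicate 1 (-0.54 and -1.26), and MMP1 was called higher without replicate 2 (3.29). Beyond the construction of each alternative, the cause was not tested.

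The replicate block gave 24 members that fell, 4 that rose and 5185 genes called in all, and ended only the call of ADAM20 (adjusted p = 0.0748 by edgeR). Deviations of same-numbered libraries had a correlation of -0.101. A crossed pairing, chosen after seeing the data, gave 26 and 4 members and 5487 genes. With 2 libraries per group the spread of genes such as MMP3 and TIMP1 is poorly known. Members that stayed under 100 counts in every library were below the level minimum, as were ADAM33 and ADAM32, with up to 189 counts.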
